A study of Mus musculus with 3 samples.

Results

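The 50 genes described here drive or restrain cell division, and their H3K36me3, trimethylation of lysine 36 of histone H3, was compared between the regulatory T (Treg) cells of 2 tissues, spleen and large intestine (LI). They were taken as a list of names, chosen with earlier results of these data known. By role they were split into 17 replication genes, 17 mitosis genes and 16 genes of cell cycle control. Each H3K36me3 peak of the mm10 genome was given to a gene if its midpoint lay in the GENCODE M21 body of that gene. In this way 45 of the 50 genes received 460 of the 120910 peaks, and 44 of them had enough signal to be compared, out of 10886 such genes in all.

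Both libraries came from CD3+CD4+Foxp3-YFP+ cells of adult C57BL/6 mice that carry Foxp3Cre-YFP, a Cre fused to a yellow fluorescent protein under the control of the Treg gene Foxp3, with no floxed gene named in the labels. No treatment is named, and cells of 7 male and 7 female mice were pooled for chromatin immunoprecipitation and sequencing (ChIP-seq), so each tissue had 1 library. There were therefore no replicates and no test between the tissues, and differences are given as values. A further library, of input DNA from splenic Treg cells was not analysed here.

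H3K36me3 is laid down by Setd2, which travels with elongating RNA polymerase, so the mark lies over the bodies of transcribed genes and is usually stronger towards their 3′ ends. Genes of the cell cycle are transcribed in waves. E2F factors, held in check by the retinoblastoma proteins until cyclin-dependent kinases release them, switch on the replication genes before DNA synthesis, and a later wave that acts through the cell cycle homology region (CHR) and CCAAT boxes switches on the mitosis genes. In a pool of cells, fewer dividing cells and less of the mark in each cell cannot be told apart.

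The depth, as judged from the smallest step between values and with bins of 20 bases assumed, was about 29600000 reads in the spleen library and 38100000 in the LI library. The summed signal of all peaks differed by 0.046 on the log2 scale between the libraries and was made equal by multiplying the LI values by 0.969 before any ratio was taken. All 9 Treg cell genes checked, Foxp3 included, held peaks. Of 10 genes of the intestinal epithelium, 2 held peaks (Epcam and Vil1), with a summed signal of 29.9 RPKM in the spleen and 59.8 RPKM in the LI. Of 7 B cell genes, 3 held peaks (60.2 and 53.4 RPKM), of 7 myeloid genes 1 did (14.7 and 16.3 RPKM), and of 2 CD8 T cell genes 1 did (21.1 and 9.5 RPKM). The part of such cells in the results was not tested.

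The promoters of a few members are printed first, because the separation into a replication wave and a mitosis wave can be read in their letters. The windows, from RefSeq on GRCm38.p6, run from 250 bases before to 50 bases after a start, and 47 windows matched 41 of the 50 members. Capitals mark 3 motifs found on either strand, with overlapping matches run together. These are the E2F motif (TTTCCCGC, TTTGGCGC, TTTCGCGC or TTTGCCGC), the CHR (TTTGAA) and the CCAAT box (CCAAT). No window was printed for Aurkb, Ccna2, Ccnd2, Ccne2, Gins1, Gins2, Mcm4, Pole and Rb1.

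Mcm5 and Mcm6, subunits of the replicative helicase, are examples of replication genes with the E2F motif. Top2a and Bub1b are examples of mitosis genes with the CHR. Not every window of either role held its motif. The windows are chr8:75109259-75109558 on the plus strand, chr1:128359656-128359955 on the minus strand, chr11:99024140-99024439 on the minus strand and chr2:118597961-118598260 on the plus strand.
Mcm5: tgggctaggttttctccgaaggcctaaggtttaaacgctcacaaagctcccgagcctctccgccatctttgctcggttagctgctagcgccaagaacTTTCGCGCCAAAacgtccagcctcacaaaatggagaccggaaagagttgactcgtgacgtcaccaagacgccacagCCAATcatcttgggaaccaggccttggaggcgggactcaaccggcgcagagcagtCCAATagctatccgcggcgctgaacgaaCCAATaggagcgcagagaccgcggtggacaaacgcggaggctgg
Mcm6: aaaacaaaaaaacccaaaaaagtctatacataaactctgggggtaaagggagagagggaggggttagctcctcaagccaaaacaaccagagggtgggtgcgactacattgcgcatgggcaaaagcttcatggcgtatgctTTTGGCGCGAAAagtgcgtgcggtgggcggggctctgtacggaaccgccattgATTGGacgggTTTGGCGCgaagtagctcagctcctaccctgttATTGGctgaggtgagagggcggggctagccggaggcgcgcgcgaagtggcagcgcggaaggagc
Top2a: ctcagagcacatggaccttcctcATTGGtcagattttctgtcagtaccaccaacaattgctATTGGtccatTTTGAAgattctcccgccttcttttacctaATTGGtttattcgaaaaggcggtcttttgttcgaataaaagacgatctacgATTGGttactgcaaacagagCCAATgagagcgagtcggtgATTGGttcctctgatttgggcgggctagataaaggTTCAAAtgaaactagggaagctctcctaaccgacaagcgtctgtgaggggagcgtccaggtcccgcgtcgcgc
Bub1b: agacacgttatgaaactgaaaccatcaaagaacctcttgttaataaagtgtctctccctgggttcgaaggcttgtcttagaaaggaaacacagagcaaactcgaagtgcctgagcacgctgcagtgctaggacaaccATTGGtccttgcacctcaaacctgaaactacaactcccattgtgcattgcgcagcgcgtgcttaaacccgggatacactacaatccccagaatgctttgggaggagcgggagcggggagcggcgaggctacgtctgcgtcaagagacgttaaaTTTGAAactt

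The E2F motif was found in 7 of the 14 replication windows (50%), in 3 of 16 mitosis windows (18.8%) and in 4 of 17 control windows (23.5%), against 2.26% of all 32851 promoter windows. The CHR was found in 13 of the 16 mitosis windows (81.2%), in 1 replication window (7.14%, Mcm2) and in 2 control windows (11.8%), against 17.9% of all windows. The CCAAT box was in 15 of 16 mitosis windows (93.8%) and 11 of 14 replication windows (78.6%), against 37.4% of all. Genes of both waves thus differ in the letters before their starts, and a match is a description of the sequence and not of a bound factor.

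The first difference between the roles was in how much of each gene body lay under peaks. The share was measured on the peaks merged over both tissues. Its median was 59.1% for the replication genes, 8.91% for the mitosis genes and 31.5% for the control genes, with members that hold no peak counted as 0. Over the members with a peak alone the medians were 61.0%, 9.29% and 33.7%, against 36.3% for all genes with a peak. More than 50% of the body was covered in 9 of 17 replication genes, in 6 of 16 control genes and in 1 of 17 mitosis genes, the condensin subunit Ncapd2 (77.5%). Among genes with a peak these were 60% of replication, 42.9% of control and 6.25% of mitosis genes, against 37.0% of all. The median level per length of gene body was 9.53 RPKM in the spleen and 7.86 RPKM in the LI for replication genes, 0.937 and 0.868 RPKM for mitosis genes, and 6.03 and 4.48 RPKM for control genes. Over all genes compared it was 4.70 and 4.97 RPKM. These medians were taken in each tissue apart, with the LI before scaling, and are no ratio per gene. Merged peaks thus lay over most of the length of many replication genes and over short pieces of most mitosis genes.

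**Figure D1:**
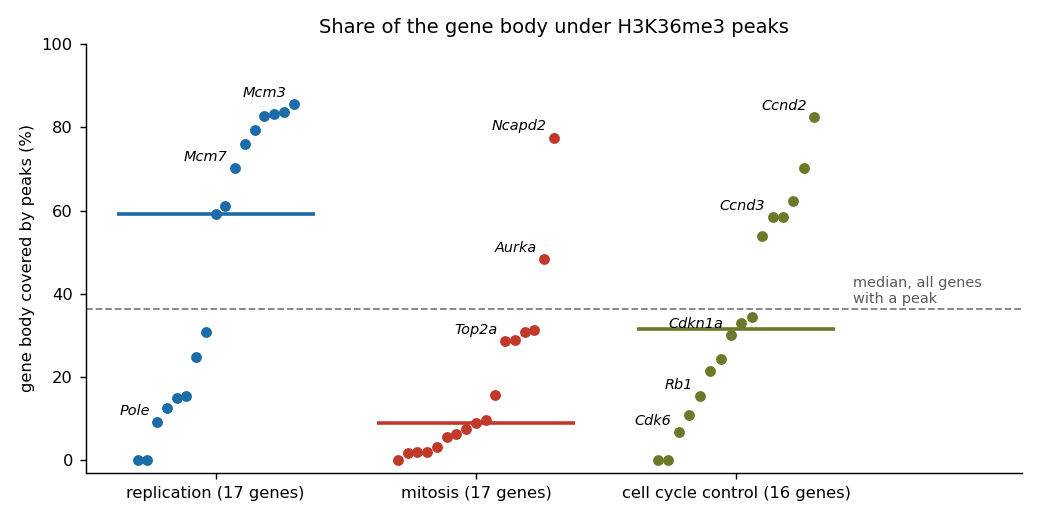
Share of the gene body covered by H3K36me3 peaks (vertical axis, %), 1 point for each of the 50 genes in 3 groups by role, with the median of each group (genes without a peak included) as a line and the median of all genes with a peak as a dashed line. The replication genes have the highest median (59.1%) and the mitosis genes the lowest (8.91%), with Ncapd2 at 77.5% the only mitosis gene above 50%.

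Between the tissues, the mitosis genes leaned to the spleen. The value used per gene was the sum of its peak RPKM, and the ratio is log2 of LI over spleen with 0.5 RPKM added to each. The median ratio was -0.43 over 15 mitosis genes (95% interval of the median over genes -0.80 to -0.13), -0.16 over 15 replication genes (-0.38 to 0.19) and -0.03 over 14 control genes (-0.44 to 0.16), against 0.01 over all genes. Higher values in the spleen were seen in 13 of 15 mitosis genes, 10 of 15 replication genes and 8 of 14 control genes, and in 49.3% of all genes. The genes of 1 role, like the peaks of 1 gene, share their libraries and are no replicates. Of all peaks of the series, 51.0% were higher in the spleen.

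Of the mitosis genes, 7 of 15 were over 1.5-fold higher in the spleen and none was over 1.5-fold higher in the LI. For comparison, 6.22% of all genes were over 1.5-fold higher in the spleen and 9.47% in the LI. No replication gene and 1 control gene, Ccnd3, passed that fold in the spleen direction. In the LI direction 1 replication gene, Prim1, and 2 control genes, Cdkn1a and E2f3, passed it. At 2-fold, 2 members were higher in the spleen (Cenpf and Kif11) and 1 in the LI (Cdkn1a), where 2.04% and 3.43% of all genes were.

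An approximate 95% counting interval was set around each ratio by taking 1 read to cover 200 bases. It covers counting error only, and not the spread between mice or preparations. The interval lay below 0 in 15 of 44 members (14.2% of all genes) and above 0 in 5 (17.0% of all genes). The 15 were 7 mitosis genes, 4 replication genes and 4 control genes.

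**Figure D2:**
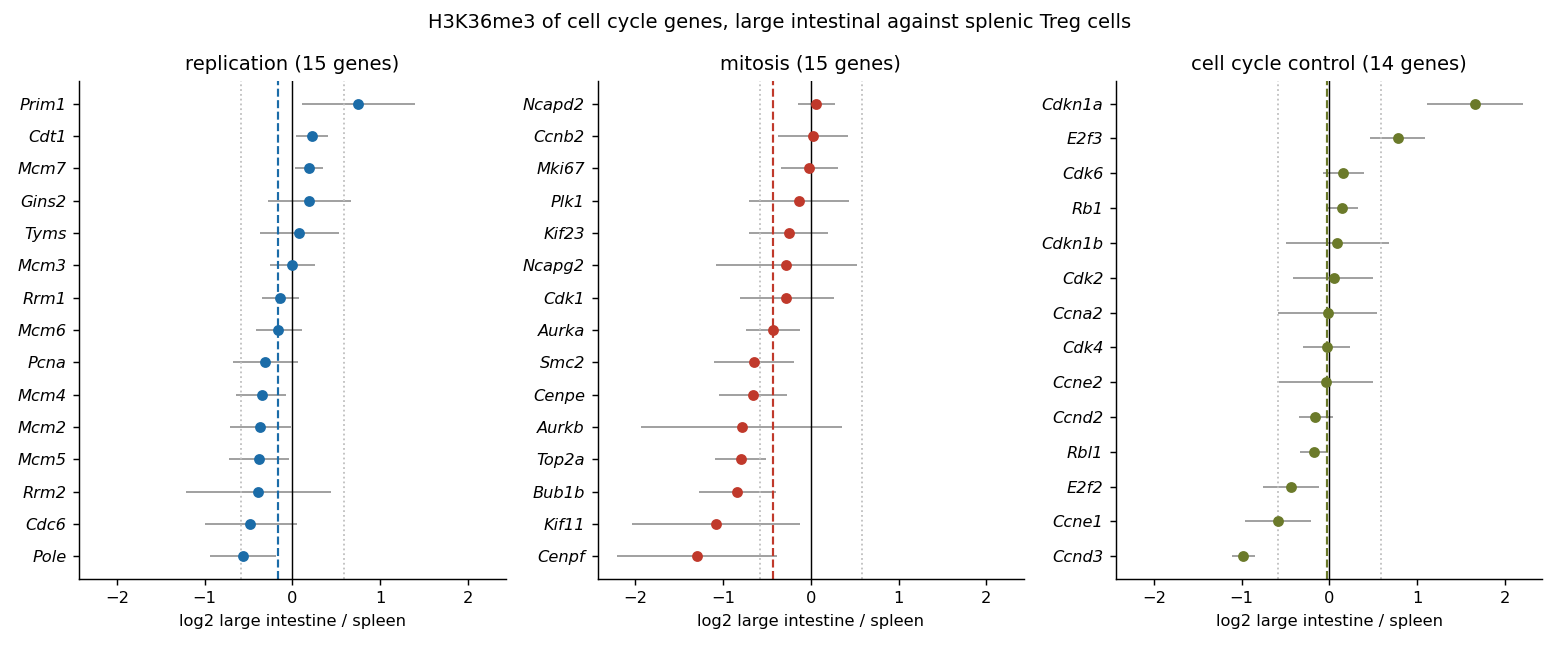
Log2 ratio of summed H3K36me3 signal, LI over spleen (horizontal axis), for the 44 genes with enough signal, by role, with points for genes, bars for the approximate 95% counting interval, a dashed line for the median of the role and dotted lines at 1.5-fold. Of the 15 mitosis genes, 13 lie to the left of 0, and Cdkn1a at 1.66 lies farthest to the right of all 44.

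Among the replication genes, the 6 subunits of the MCM helicase, which unwinds DNA at the fork, were the most evenly covered, between 70.1% and 85.5% of the gene body. Their ratios ran from -0.38 to 0.19. Mcm7 (chr5:138164583-138172422) had a single peak of 7701 bases, at 23.4 RPKM in the spleen and 27.6 RPKM in the LI, a ratio of 0.19 (counting interval 0.03 to 0.35). Mcm2 (chr6:88883474-88898780) summed to 64.0 RPKM over 4 peaks in the spleen and 51.2 RPKM in the LI, a ratio of -0.37 (-0.71 to -0.02).

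The Mcm2 value hid a difference along the gene. Its longest peak, 10586 bases over the downstream part, was at 24.6 RPKM in the spleen and 28.4 RPKM in the LI, while the short peak nearest the start was at 16.9 and 7.06 RPKM. Weighting each peak by its length gave Mcm2 a ratio of 0.08, on the other side of 0. Mcm5 showed the same arrangement. Its peak of 200 bases nearest the start was at 11.5 RPKM in the spleen and 4.77 RPKM in the LI, and its peak of 9302 bases was at 15.7 and 15.6 RPKM. In Mcm4, the peak nearest the start was at 18.3 RPKM in the spleen and 8.81 RPKM in the LI, and the longest, of 5471 bases, was at 17.9 RPKM in both. The peak nearest the start was at 12.1 RPKM in the spleen and 8.57 RPKM in the LI in Mcm6. It went the other way in Mcm3, at 7.34 and 8.54 RPKM, and Mcm7 had a single peak.

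Over all 6 MCM genes, the 15 peaks of 1 kb or more summed to 245 RPKM in either tissue, a ratio of -0.05 (-0.13 to 0.03). The 13 shorter peaks summed to 166 RPKM in the spleen and 115 RPKM in the LI, a ratio of -0.57 (-0.90 to -0.25). Of the 13, 11 were higher in the spleen, against 51.7% of all peaks under 1 kb. Short peaks less long peaks came to -0.53 on the log2 scale (-0.87 to -0.19). This split was made after the values were seen.

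The summed ratios of Mcm4 and Mcm5 lay below 0 like that of Mcm2. Mcm4 held 101 RPKM in the spleen and 81.5 RPKM in the LI (-0.35, -0.64 to -0.07), though its strongest peak alone gave 0.26. Mcm5 held 83.0 and 65.7 RPKM (-0.38, -0.72 to -0.04). Mcm3 held 42.1 and 43.3 RPKM (-0.00, -0.26 to 0.26), and Mcm6 97.5 and 90.0 RPKM (-0.16, -0.42 to 0.11). The sliding clamp Pcna had 1 peak, at 17.8 RPKM in the spleen and 14.7 RPKM in the LI (ratio -0.31, -0.68 to 0.06). Neither Mcm3, Mcm6 nor Pcna had an interval that left out 0.

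Cdt1 (chr8:122568015-122573554), which loads the helicase onto origins, had the highest level per body of any member, 25.6 RPKM in the spleen and 30.8 RPKM in the LI. It lay under a single peak of 4745 bases, shared with the overlapping gene model Gm20388, at 29.8 and 36 RPKM, a ratio of 0.22 (0.04 to 0.40) that became -0.01 once a trend with GC content was divided out. Its loading partner Cdc6 summed to 80.7 RPKM in the spleen and 59.6 RPKM in the LI over 8 peaks (-0.48, -1.0 to 0.05). Gins2, of the GINS complex that completes the helicase, held 57.3 and 67.7 RPKM (0.19, -0.28 to 0.67), with all 4 of its peaks shared with the overlapping models Gm20388 or Gse1. The licensing genes thus fell on both sides of 0.

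Prim1 (chr10:128015168-128030037), the primase that starts each new strand, was the replication gene highest in the LI. Its 5 peaks summed to 30.3 RPKM in the spleen and 53.0 RPKM in the LI, a ratio of 0.75 (0.11 to 1.40), and 4 of the 5 were higher in the LI. Only 12.7% of its body was covered. Pole, the leading strand polymerase, lay at the other end, with 156.6 RPKM in the spleen and 109.1 RPKM in the LI over 16 peaks of 200 to 411 bases (-0.56, -0.94 to -0.19). Of those 16 peaks 14 were higher in the spleen, 1 also lay in Gm15792, and the gene stopped short of 1.5-fold. Its strongest peak alone was higher in the LI, at 0.49.

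None of the enzymes that make nucleotides had a summed ratio with an interval that left out 0. Rrm1, the large subunit of ribonucleotide reductase, summed to 209.3 RPKM in the spleen and 195.6 RPKM in the LI over 19 peaks (-0.14, -0.35 to 0.07). Its partner Rrm2 held 29.0 and 22.7 RPKM over 3 peaks (-0.39, -1.21 to 0.44). Tyms, thymidylate synthase, held 66.2 and 72.4 RPKM over 8 peaks (0.08, -0.37 to 0.53). The strongest peak alone gave -0.95 (-1.87 to -0.02) for Tyms and 0.80 (-0.42 to 2.03) for Rrm2.

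The mitosis genes that passed 1.5-fold act at different steps of division. Top2a (chr11:98992943-99024189), the topoisomerase that untangles chromosomes, summed to 200.9 RPKM in the spleen and 118.8 RPKM in the LI over 19 peaks, a ratio of -0.80 (-1.09 to -0.51). All but 1 of the 19 peaks were higher in the spleen, and the strongest alone gave -0.38 (-1.29 to 0.53). The peak nearest the start, 246 bases long and 2.93 kb into the gene, was at 9.91 RPKM in the spleen and 1.63 RPKM in the LI.

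Bub1b (chr2:118598211-118641591), a kinase-like protein of the spindle checkpoint, had 12 peaks between 200 and 497 bases long, 11 of them in introns. Against 51.7% of all peaks under 1 kb, all 12 were higher in the spleen. Their sum was 129.2 RPKM in the spleen and 74.5 RPKM in the LI, a ratio of -0.84 (-1.27 to -0.40). The 12 peaks ranged from 7.35 to 18.6 RPKM in the spleen and from 3.33 to 11.8 RPKM in the LI. Yet they covered 8.91% of the gene.

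Cenpf (chr1:189640606-189688086), a protein of the outer kinetochore, had the lowest ratio of the members compared. Its 4 peaks were at 7.21, 12.8, 11 and 10.9 RPKM in the spleen and at 1.58, 1.35, 8.29 and 6.04 RPKM in the LI, from the 3′ to the 5′ end. The sum gave a ratio of -1.30 (-2.21 to -0.39), and all 4 peaks were higher in the spleen, although they covered 1.98% of the gene.

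Kif11 (chr19:37376403-37421859), the kinesin that pushes spindle poles apart, had 3 peaks at 9.63, 10.1 and 6.23 RPKM in the spleen and 3.80, 6.45 and 2.18 RPKM in the LI. The ratio was -1.08 (-2.04 to -0.12). The other kinesins lay on the same side. Cenpe (chr3:135212537-135273611), which moves chromosomes to the spindle equator, summed to 154.9 RPKM in the spleen and 101 RPKM in the LI over 15 peaks (-0.66, -1.05 to -0.27), with 11 of the 15 higher in the spleen. Kif23, needed for the final separation of daughter cells, held 95 and 82.5 RPKM over 10 peaks (-0.25, -0.70 to 0.20).

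Smc2 (chr4:52439243-52488260), an ATPase of condensin, summed to 111.2 RPKM in the spleen and 72.9 RPKM in the LI over 11 peaks, a ratio of -0.65 (-1.11 to -0.19). This was the smallest change past 1.5-fold, and 9 of its 11 peaks were higher in the spleen. Weighting by peak length gave -0.49, short of that fold. Ncapd2 (chr6:125168007-125191701), another condensin subunit and the best covered mitosis gene, summed to 113.6 and 122.5 RPKM over 9 peaks (0.06, -0.15 to 0.27). Ncapg2, also of condensin, held 26.1 and 22.1 RPKM over 3 peaks (-0.28, -1.08 to 0.53), an interval that takes in the Smc2 value.

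The mitotic kinases, with the kinase-like Bub1b counted among them, had ratios between -0.84 and -0.13. Aurkb (chr11:69045647-69051664), the kinase of the chromosomal passenger complex, rested on 1 peak of 345 bases at 13.8 RPKM in the spleen and 8.05 RPKM in the LI, and its ratio of -0.79 had an interval that spanned 0 (-1.94 to 0.36). Aurka (chr2:172356190-172370535), which acts at the spindle poles, summed to 118.7 and 90.7 RPKM over 10 peaks (-0.43, -0.74 to -0.12), with its strongest peak alone at 0.01. Plk1 (chr7:122159439-122169873), which drives entry into mitosis, held 47.7 and 44.8 RPKM over 4 peaks (-0.13, -0.70 to 0.44). Cdk1, the kinase that mitotic cyclins activate, held 54.6 and 46.4 RPKM over 6 peaks (-0.28, -0.81 to 0.26).

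Mki67 encodes Ki-67, the protein most used to mark dividing cells, and its values were close in the tissues. Its 17 peaks summed to 135.8 RPKM in the spleen and 138.6 RPKM in the LI, a ratio of -0.02 (-0.34 to 0.31), with 11 peaks higher in the spleen and 6 in the LI. Ccnb2, a mitotic cyclin, likewise held 68.8 and 72.2 RPKM over 7 peaks (0.02, -0.37 to 0.42). The other mitotic cyclin, Ccnb1, had 1 intronic peak of 254 bases at 8.93 RPKM in the spleen and 1.86 RPKM in the LI, below the minimum of 20 RPKM over both that was set for a ratio.

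**Figure D3:**
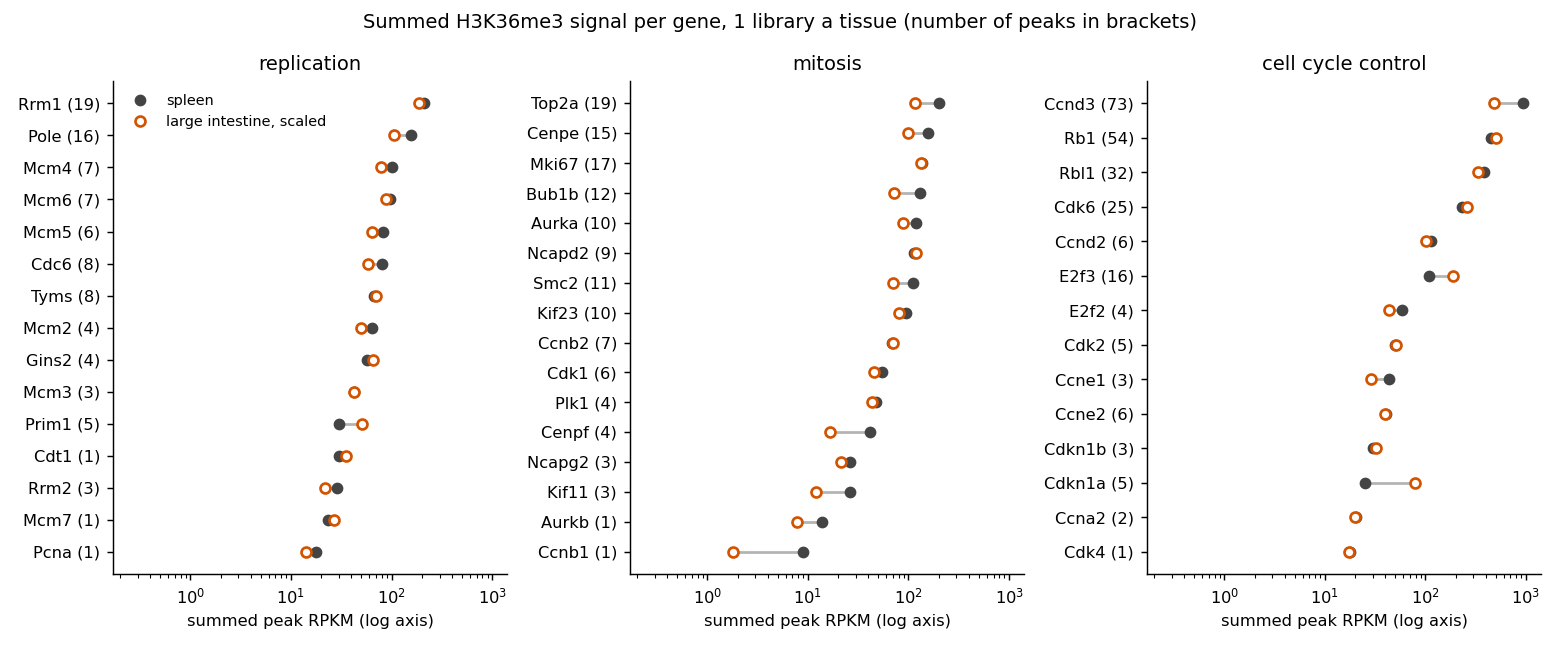
Summed peak RPKM per gene on a log axis for the 45 members with a peak, by role, with the number of peaks in brackets after each name, the spleen library as filled points and the scaled LI library as open points. Ccnd3 has both the highest sum and a wide gap in favour of the spleen (938.5 against 491.4 RPKM before scaling), while Cdkn1a shows the widest gap in favour of the LI.

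Among the control genes, the D cyclins, which carry growth signals to Cdk4 and Cdk6, had different ratios. Ccnd2 (chr6:127125162-127152193) had the highest level per body of the role, 20.5 RPKM in the spleen and 18.8 RPKM in the LI, and its 6 peaks, 2 of them shared with the transcripts 9330179D12Rik and Gm43126, summed to 112.7 and 104.4 RPKM (-0.16, -0.35 to 0.04). Ccnd3 (chr17:47505051-47599691) summed to 938.5 RPKM in the spleen and 491.4 RPKM in the LI over 73 peaks. Its ratio of -0.98 had the narrowest interval of the members past 1.5-fold (-1.11 to -0.85). Against 51.0% of all peaks, 71 of its 73 peaks were higher in the spleen. The strongest peak alone gave -0.30 (-0.67 to 0.06).

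Most of the Ccnd3 signal lay before the downstream of its annotated starts. So did most of its peak length, with 51.3 kb before that start and 4.51 kb past it. The gene has RefSeq starts at both ends of a stretch of 88.4 kb, and the windows at the upstream start (chr17:47504801-47505100) and the downstream start (chr17:47593217-47593516), both on the plus strand, are printed because the tissues differ between them.
Ccnd3 upstream start: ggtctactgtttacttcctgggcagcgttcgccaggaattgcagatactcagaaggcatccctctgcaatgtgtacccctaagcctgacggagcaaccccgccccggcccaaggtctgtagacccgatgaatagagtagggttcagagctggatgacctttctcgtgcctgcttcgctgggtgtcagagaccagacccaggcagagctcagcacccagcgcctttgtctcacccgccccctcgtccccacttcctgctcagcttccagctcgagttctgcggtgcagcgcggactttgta
Ccnd3 downstream start: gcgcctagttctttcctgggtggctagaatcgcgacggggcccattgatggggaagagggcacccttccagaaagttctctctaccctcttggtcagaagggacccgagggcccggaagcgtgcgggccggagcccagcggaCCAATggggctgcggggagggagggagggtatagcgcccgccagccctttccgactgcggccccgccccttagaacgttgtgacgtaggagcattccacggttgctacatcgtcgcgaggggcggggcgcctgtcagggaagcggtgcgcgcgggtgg

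Before the downstream start, 70 peaks summed to 896 RPKM in the spleen and 460 RPKM in the LI, a ratio of -1.01 (-1.14 to -0.87). Single peaks in that stretch ran from 5.27 to 22.0 RPKM in the spleen and from 2.54 to 11.7 RPKM in the LI, and 68 of the 70 were higher in the spleen. Past the downstream start, 3 peaks were at 7.03, 15.6 and 20.3 RPKM in the spleen and 4.75, 10.1 and 16.9 RPKM in the LI, a ratio of -0.47 (-0.85 to -0.09). The ratio before that start less the ratio past it was -0.54 (-0.94 to -0.13). The split was chosen after the values were seen. Transcripts that begin at the downstream start do not include the stretch before it.

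The kinases that pair with cyclins of the first phases had close values in the tissues. Cdk4 (chr10:127063534-127067920) lay under 1 peak at 17.7 RPKM in the spleen and 17.8 RPKM in the LI (-0.03, -0.30 to 0.24). Cdk6, with 25 peaks over 190 kb, 16 of them higher in the LI and 4 also in Gm17590, held 229.9 and 266.0 RPKM (0.16, -0.07 to 0.40). Cdk2, which pairs with the E and A cyclins, held 49.9 and 53.2 RPKM over 5 peaks (0.05, -0.41 to 0.50).

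Of the E cyclins, which trigger DNA synthesis, Ccne1 lay just short of 1.5-fold with 43.0 RPKM in the spleen and 29.4 RPKM in the LI (-0.58, -0.96 to -0.21), with each of the 3 peaks on the spleen side. Ccne2 held 40.5 and 40.8 RPKM (-0.04, -0.57 to 0.50), but all 6 of its peaks also lay in the overlapping gene Ints8. Ccna2, the cyclin of S phase, held 20.3 and 20.7 RPKM over 2 peaks (-0.02, -0.58 to 0.54), 1 of them also in Exosc9.

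The largest ratio of all members belonged to Cdkn1a (chr17:29090976-29100727), which encodes p21, an inhibitor of cyclin-dependent kinases. Its 5 peaks, in order from the start, were at 9.84, 0.349, 4.87, 4.44 and 5.34 RPKM in the spleen and at 16.9, 10.5, 29.0, 14.1 and 11.6 RPKM in the LI. All 5 were higher in the LI, and the sums of 24.8 and 82.0 RPKM gave a ratio of 1.66 (1.11 to 2.21). The longest peak, of 1450 bases, had a ratio of 2.41. The level per body was 1.60 RPKM in the spleen and 6.37 RPKM in the LI.

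The second Cdkn1a peak showed the widest relative gap of the 460 peaks, and an intronic peak of E2f3 came next to it. Both gaps rest on spleen values near 0, at 0.349 and 0.823 RPKM, so their size depends on the added 0.5 RPKM. Both peaks are printed with the promoter of Cdkn1a that lies closest to its peaks (chr17:29093519-29093818, plus strand). The Cdkn1a peak is an intronic stretch of 227 bases at chr17:29096054-29096280, and the E2f3 peak is an intronic stretch of 205 bases at chr13:29949345-29949549, with both given as the forward strand of GRCm38.p6. No capital is used in them, since no motif was searched there.
Cdkn1a promoter: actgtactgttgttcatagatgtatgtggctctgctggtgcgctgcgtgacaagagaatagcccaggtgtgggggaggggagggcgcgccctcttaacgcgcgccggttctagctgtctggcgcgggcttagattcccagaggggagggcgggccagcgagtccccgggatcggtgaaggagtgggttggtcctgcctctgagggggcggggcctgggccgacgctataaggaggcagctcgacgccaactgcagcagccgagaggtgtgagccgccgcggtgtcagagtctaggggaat
Cdkn1a peak: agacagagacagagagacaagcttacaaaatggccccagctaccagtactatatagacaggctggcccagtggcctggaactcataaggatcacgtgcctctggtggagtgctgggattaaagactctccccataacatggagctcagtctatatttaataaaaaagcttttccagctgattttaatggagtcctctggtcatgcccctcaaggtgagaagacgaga
E2f3 peak: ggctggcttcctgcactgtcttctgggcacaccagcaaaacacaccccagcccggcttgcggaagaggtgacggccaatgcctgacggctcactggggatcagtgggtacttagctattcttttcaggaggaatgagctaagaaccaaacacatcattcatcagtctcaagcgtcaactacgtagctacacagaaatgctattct

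Neither E2F, CHR nor CCAAT letters were present in that Cdkn1a window. Cdkn1b, which encodes the related inhibitor p27, held 30 RPKM in the spleen and 33.0 RPKM in the LI (0.09, -0.49 to 0.68). Its 3 peaks (chr6:134920401-134925513) pointed in different directions, from 5.77 and 16.2 RPKM near the start to 8.69 and 3.81 RPKM at the 3′ end. The sum over Cdkn1b showed no such excess in the LI.

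E2f3 (chr13:29906575-29986063), an E2F factor that activates replication genes, summed to 108.8 RPKM in the spleen and 193.2 RPKM in the LI over 16 peaks, 3 of them also in Gm11365, a ratio of 0.78 (0.47 to 1.09). Its strongest peak alone turned the direction, at -0.14 (-1.18 to 0.90), and weighting by peak length gave 0.55 (0.30 to 0.79). The 6 peaks between 25.6 and 45.6 kb from the start ran from 0.823 to 6.40 RPKM in the spleen and from 9.96 to 14.1 RPKM in the LI. The 10 peaks beyond them, nearer the 3′ end, ran from 3.75 to 14.9 RPKM in the spleen and from 9.46 to 18.0 RPKM in the LI, and 3 of them were higher in the spleen. The ratio was 1.60 (0.81 to 2.39) for the first group and 0.44 (0.11 to 0.76) for the second, a difference of 1.16 (0.31 to 2.02). This grouping too was made after the values were seen.

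E2f2, another activating E2F, went the other way, with 58.5 RPKM in the spleen and 44.4 RPKM in the LI (-0.44, -0.76 to -0.12), with each of the 4 peaks on the spleen side. Rb1, the retinoblastoma protein itself, held 452.3 and 516.2 RPKM over 54 peaks (0.15, -0.04 to 0.33), of which 12 also lay in Lpar6, Rcbtb2 or Gm17233. Its relative Rbl1 held 378.9 and 344.7 RPKM over 32 peaks (-0.18, -0.33 to -0.04), 1 of them also in Gm14277, and its strongest peak alone was at 1.23. Members of the E2F and retinoblastoma families thus had ratios on both sides of 0.

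**Figure D4:**
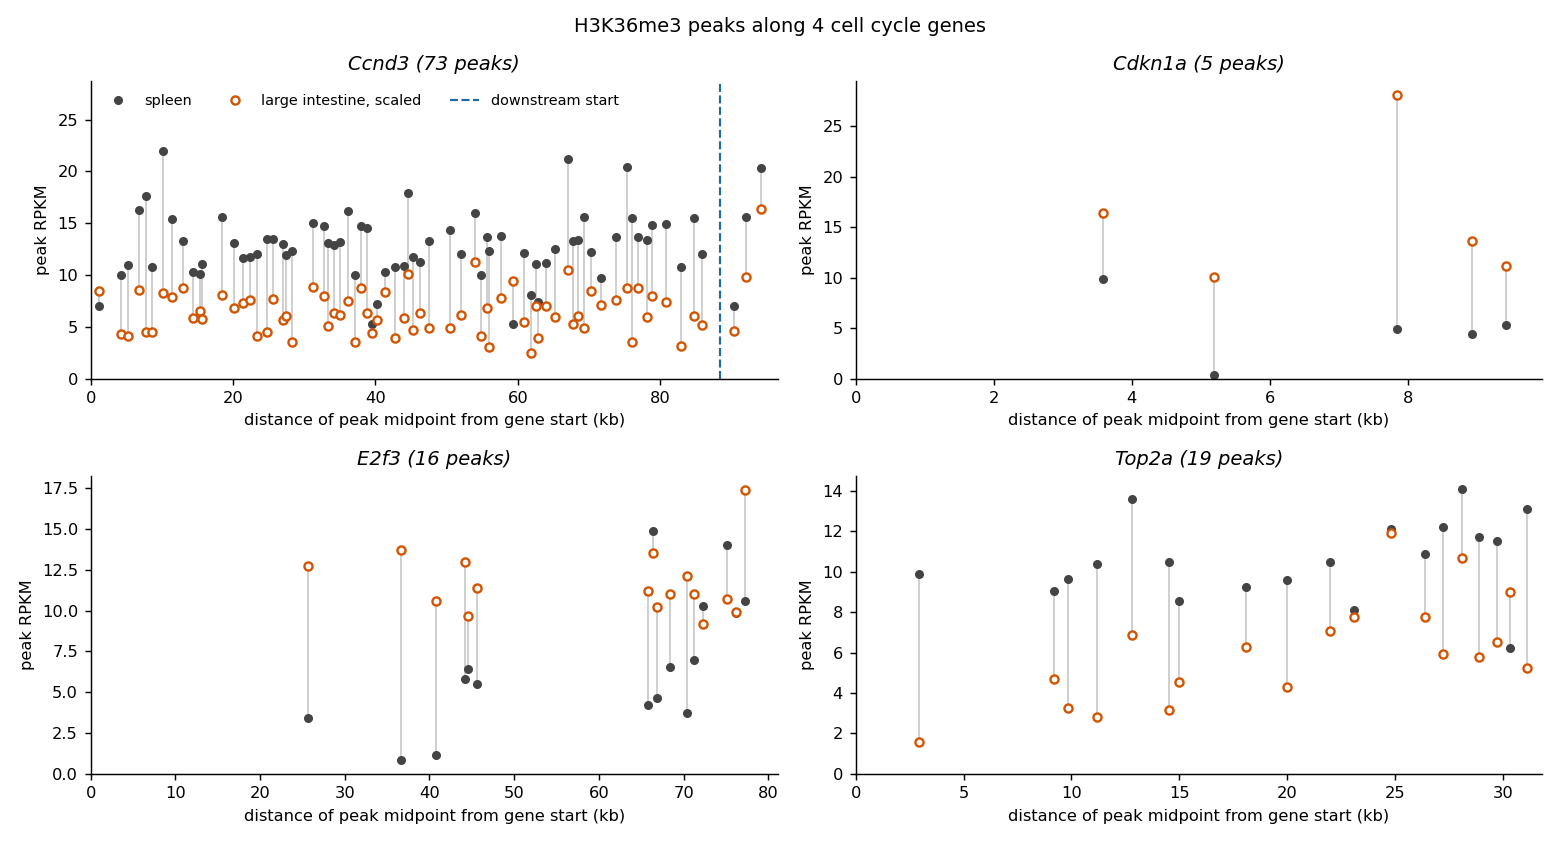
Peak RPKM (vertical axis) against the distance of the peak midpoint from the gene start (kb) for Ccnd3, Cdkn1a, E2f3 and Top2a, with the spleen library as filled points, the scaled LI library as open points and a line joining the same peak. The spleen points lie above the LI points along nearly all of Ccnd3, also past the dashed line of its downstream start, and below them at all 5 peaks of Cdkn1a.

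Another 5 members had no peak midpoint in the body. These were the polymerase subunit Pola1, the GINS subunit Gins1, the checkpoint kinase Bub1, the inhibitor Cdkn2c and the activator E2f1. The closest peak lay 4.75 kb away from Gins1, 16.2 kb from E2f1, 145 kb from Bub1, 147 kb from Pola1 and 206 kb from Cdkn2c. No peak overlapped these genes, which says that none was called there in either tissue and not that the mark was absent.

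The length of the peaks set the members apart as well. In the mitosis genes 6.82% of 132 peaks reached 1 kb, against 26.9% of 93 in the replication genes, 21.7% of 235 in the control genes and 23.3% of all peaks. The 9 long mitosis peaks summed to 128 RPKM in the spleen and 129 RPKM in the LI, a ratio of -0.03 (-0.18 to 0.11). The 123 shorter ones summed to 1219 and 897 RPKM, a ratio of -0.49 (-0.61 to -0.36). Of the 123, 96 were higher in the spleen, against 51.7% of all peaks under 1 kb. The lean of the mitosis genes to the spleen was seen in their short peaks. Of the mitosis genes past 1.5-fold, only Top2a held a peak of 1 kb or more. Long and short peaks thus came in part from different genes, and the part of peak length was not tested.

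In the replication genes the same split gave -0.00 (-0.08 to 0.07) for 25 long peaks and -0.30 (-0.46 to -0.13) for 68 short ones. The control genes did not share it, at -0.29 (-0.35 to -0.22) for 51 long peaks and -0.18 (-0.27 to -0.09) for 184 short ones, where Ccnd3 supplied 73 of the 235 peaks. Over all peaks of the series, long peaks had a ratio of 0.03 and short peaks -0.02. Peaks were called in each tissue and then merged, so a short peak called in 1 tissue alone is part of the list for both.

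Wide ratios were also more common among thinly covered genes in general. Of the 1918 genes with under 10% of the body covered, 17.0% were over 1.5-fold higher in the spleen and 20.3% over 1.5-fold higher in the LI, and their median was 0.01. The 8 mitosis genes with under 10% covered had a median of -0.73, all 8 were higher in the spleen and 6 were over 1.5-fold higher there. The 7 with 10% or more covered had a median of -0.13, and of these only Top2a passed 1.5-fold. The part of thin coverage in the lean to the spleen was not tested.

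**Figure D5:**
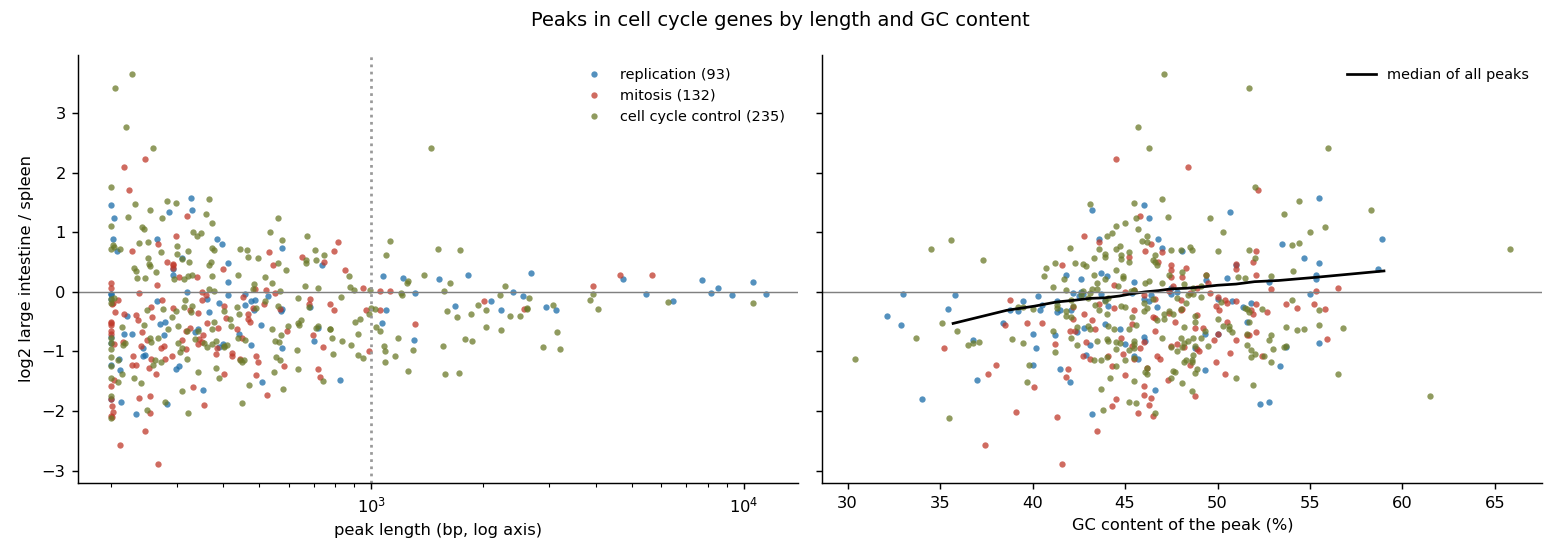
Log2 ratio of LI over spleen for each of the 460 peaks in members against peak length (left, bp on a log axis, dotted line at 1 kb) and against GC content (right, %), coloured by role, with the median of all peaks of the series as a line in the right panel. Peaks under 1 kb spread widely and more of them lie below 0, while most long peaks of the replication and mitosis genes lie close to 0.

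The ratio of the libraries depended on base composition across all peaks, from a median of -0.53 at 35.7% GC to 0.35 at 59.0% GC. The median GC content of peaks per gene was close in the 3 roles, at 47.3% for replication, 47.7% for mitosis and 47.4% for control, and at 48.2% for all genes. After the trend was divided out, the mitosis median was -0.54, the replication median -0.02 and the control median 0.09. Cdkn1a had peaks of 56.4% GC, the highest of any member, and its ratio was 1.43 after the trend was divided out.

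Among genes of the same pathways outside the 50, mitosis genes had the lowest median, though the intervals of the medians of the further lists overlapped. These genes come from the same libraries, and their lists were chosen with earlier results of these data known. Of 50 further mitosis genes, 39 could be compared, with a median of -0.25 (-0.71 to -0.10), 31 higher in the spleen, 14 over 1.5-fold higher there and none over 1.5-fold higher in the LI. Of all genes, 49.3% were higher in the spleen, 6.22% over 1.5-fold higher there and 9.47% over 1.5-fold higher in the LI. The lowest were Kif15, a spindle kinesin, at 24.0 RPKM in the spleen and 4.24 RPKM in the LI (-2.41), and Birc5, survivin, at 22.8 and 8.50 RPKM (-1.41). The highest were Racgap1, of the spindle midzone, at 99.1 and 134.8 RPKM (0.40, 0.13 to 0.66), and Pttg1, securin, at 58.0 and 68.7 RPKM (0.20, -0.21 to 0.60). The 11 of these 39 with over 50% of the body covered had a median of -0.10, and 1 of them passed 1.5-fold in the spleen direction, against a median of -0.41 and 13 of the other 28. That 1 gene, named after its values were seen, was Smc4, the condensin partner of Smc2, at 197.7 RPKM in the spleen and 105.3 RPKM in the LI (-0.95, -1.17 to -0.73), while the other 10 lay between -0.23 and 0.20.

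Of 42 further replication genes, 39 could be compared, with a median of -0.09 (-0.20 to 0.12). Over 1.5-fold higher were 2 in the spleen and 1 in the LI, against 6.22% and 9.47% of all genes. Named among the 39 are Dbf4, the activator of an origin kinase, at 93.6 and 63.8 RPKM (-0.59, -1.02 to -0.17), and Gmnn, geminin, at 23.0 and 36.5 RPKM (0.61, -0.03 to 1.26). The clamp loader subunit Rfc2 was at 101.2 and 136.8 RPKM (0.39, 0.11 to 0.66). Of 32 further control genes, 26 could be compared, with a median of -0.16 (-0.31 to -0.01). Over 1.5-fold higher were 3 in the spleen and 1 in the LI, against the same shares of all genes. The lowest of the 26 were E2f7, a repressive E2F, at 67.8 and 35.5 RPKM (-0.97, -1.61 to -0.33), and Mnat1, of the kinase complex that activates other cyclin-dependent kinases, at 47.9 and 26.3 RPKM (-0.90, -1.68 to -0.11). The highest were the inhibitor Cdkn2d, with 1 peak at 9.36 and 16.1 RPKM (0.71, -0.29 to 1.72), and the checkpoint kinase Chek2 at 44.5 and 62.8 RPKM (0.45, -0.18 to 1.08). Both of these intervals took in 0.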

How the data were processed

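Treg cells were sorted from the spleen and large intestine, fixed, and subjected to ChIP-seq with an H3K36me3 antibody (Active Motif), read as single ends of 75 nucleotides. The authors aligned the reads to mm10, called peaks in each tissue against the input with MACS2 (p 0.01), merged the peaks with bedtools and deposited the mean RPKM of each library over every merged peak. The submitters' processing notes also name FastQC and Bowtie2, and no versions are given in the sources used here. Its file name speaks of raw counts, yet the values are not whole numbers, and they were used as RPKM. The input library was not analysed here.

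The members and gene lists were chosen with earlier results of these data known. LI values were scaled by 0.969 to equal totals, peaks were given to GENCODE M21 gene bodies by their midpoint, and peak values were summed per gene. A ratio needed 20 RPKM over both libraries and used a pseudocount of 0.5 RPKM. Peaks on 21 chromosomes fitted within the GRCm38.p6 lengths, and GC content was read from that genome. The scripts (Python 3.11.15, pandas 2.3.3) were tested on simulated data. With 1 library a tissue no test was run, and depth was inferred from the step between low values, with bins of 20 bases assumed. Genes were written with full values where they passed 1.5-fold or had 1 of the 3 highest levels per body of their role. Of the further lists, the 2 highest and 2 lowest ratios were named, except for 1 gene that is not reported here.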

Additional observations from a re-analysis of the deposited data

How the results depend on the processing

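The results were recomputed with the deposited scaling, a scaling by the median of gene ratios, a pseudocount of 5 RPKM, no minimum, a minimum of 100 RPKM, peaks weighted by length, the strongest peak alone, peaks given to the nearest transcript start, peaks that lie in 1 gene alone, values corrected for GC content, and peaks of 1 kb or more. The mitosis median was below 0 under all of these, from -0.54 to -0.17, but its interval took in 0 with the minimum of 100 RPKM (-0.80 to 0.02) and the nearest transcript start (-0.84 to 0.17), and none could be given over the 4 mitosis genes left with peaks of 1 kb or more, while the replication median ran from -0.35 to 0.16 and the control median from -0.11 to 0.09. The number of members over 1.5-fold higher in the LI became 5 with the strongest peak alone. The number over 1.5-fold higher in the spleen became 5 with the minimum of 100 RPKM and 1 with peaks of 1 kb or more, where fewer members, 28 in both cases, could be compared. The direction changed for single genes whose interval had left out 0. With the strongest peak alone, the ratio became 0.16 for Mcm2, 0.26 for Mcm4, 0.49 for Pole, 0.01 for Aurka, -0.14 for E2f3 and 1.23 for Rbl1. Of the 11 members past 1.5-fold, E2f3, Prim1 (0.45), Cenpf (-0.43), Ccnd3 (-0.30), Top2a (-0.38) and Cenpe (-0.27) fell short of that fold with the strongest peak alone. Mcm2 was also at 0.08 with peaks weighted by length and at 0.16 with peaks of 1 kb or more, and Cdt1 was at -0.01 after correction for GC content. The causes were not tested. With 1 library a tissue, counting error was the only error that could be set beside a value.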
